A study of Mus musculus with 27 samples.

Results

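The data are expression levels of 10 genes that mark macrophages, measured on arrays in prostate tumours of F2 mice. The 10 genes were Csf1r, Adgre1, Itgam, Cd68, Cd14, Mrc1, Cd163, Mertk, C1qa and C1qb, chosen as the rows of the deposited table whose single gene symbol was a listed gene. All 10 were measured, each by exactly 1 row, among 22180 genes. The 27 tumours formed 1 group with no contrast in the labels, so levels were compared between tumours and along other genes. All tumours came from males positive for the TRAMP transgene, with a mixed genetic background from C57BL/6-Tg(TRAMP)8247Ng/J and PWK/PhJ mice, collected at 30 weeks or at an earlier humane endpoint. Ages of single animals are not known here. As general background, the transgene drives SV40 T antigen in prostate epithelium from a probasin promoter. All animals carry it, and no transgene-negative prostate was analysed here.

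Macrophages are phagocytes that derive from embryonic progenitors or from blood monocytes and depend on signalling through the receptor that Csf1r encodes. In tumours they clear dying cells, take up debris through scavenger receptors, and secrete complement, chemokines and matrix enzymes. Their number and state vary widely between tumours. In bulk tissue, fewer macrophages and less of a transcript per macrophage cannot be told apart.

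Values are log2 levels as the authors deposited them, between 1.68 and 14.5 over all rows, with a median of 5.75. Array medians lay between 5.67 and 5.82. A level near or below the median of all values is close to background, and levels of different genes were not set against each other because each row has its own probes. Of 18 further macrophage genes, all 18 had a mean level above the median of all values. The mean level of this list ranged from 6.16 in P803 to 8.66 in P471. All 10 endothelium genes and 9 of 11 fibroblast and matrix genes were above that median too, so this shows detection and does not identify a cell type. Of 12 neutrophil genes, 7 were below the median of all values in every tumour. The T and NK cell list averaged 4.60 to 6.18, the fibroblast and matrix list 6.27 to 8.98 and the mast cell list 4.26 to 7.09. 4 tumours, P966, P471, P425 and P1276, formed a separate cluster with low scores on 15 neuroendocrine genes, between -2.78 and -1.67, against -0.13 to 0.74 in the other 23 tumours. The pairs of macrophage genes as a set, and the fits along Csf1r and the T and NK cell and fibroblast scores, are also given without these 4. The hypoxia and mitosis fits, the principal component analysis and the rankings by r were not repeated without all 4.

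Promoters are shown for 3 genes whose behaviour differed: C1qb, which moved closely with the other macrophage genes, and Cd68 and Mertk, which had the lowest Pearson's r with them. Each holds 250 bases before and 50 after the RefSeq transcription start (GRCm38.p6, gene strand, 5′ to 3′): C1qb at chr4:136886151-136886450 (minus strand), Cd68 at chr11:69666121-69666420 (minus strand) and Mertk at chr2:128698665-128698964 (plus strand). Capitals mark GGAAGT or its reverse complement ACTTCC, the core of sites bound by ETS factors such as PU.1, the myeloid factor encoded by Spi1.
C1qb: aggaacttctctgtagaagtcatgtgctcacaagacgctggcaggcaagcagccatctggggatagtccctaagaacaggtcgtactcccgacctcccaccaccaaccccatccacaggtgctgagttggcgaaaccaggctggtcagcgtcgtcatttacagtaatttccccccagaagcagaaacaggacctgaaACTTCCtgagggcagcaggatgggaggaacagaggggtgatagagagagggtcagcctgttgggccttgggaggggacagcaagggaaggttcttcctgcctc
Cd68: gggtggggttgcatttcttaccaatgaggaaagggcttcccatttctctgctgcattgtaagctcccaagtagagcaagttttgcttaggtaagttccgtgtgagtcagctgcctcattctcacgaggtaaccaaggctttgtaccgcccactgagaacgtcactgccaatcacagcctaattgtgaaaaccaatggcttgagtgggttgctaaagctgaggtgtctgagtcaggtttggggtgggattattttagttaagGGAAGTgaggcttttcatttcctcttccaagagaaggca
Mertk: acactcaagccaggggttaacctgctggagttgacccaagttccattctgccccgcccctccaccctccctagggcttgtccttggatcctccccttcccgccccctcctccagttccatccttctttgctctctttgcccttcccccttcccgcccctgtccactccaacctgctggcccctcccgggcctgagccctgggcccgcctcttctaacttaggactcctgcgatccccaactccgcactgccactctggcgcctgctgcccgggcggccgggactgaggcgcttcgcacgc
Promoters were matched for 6 of the 10 genes, and GGAAGT was present on either strand in those of C1qb, Cd68 and Mrc1. It lay at -53 in C1qb, at 12 after the start in Cd68 and at -211 in Mrc1. The letters were absent from these windows of Mertk, Itgam and Cd163. Of 32851 promoters of this length, 23.8% held GGAAGT. 3 other motifs were searched on both strands and found in none of the 6: GAGGAAGT, which contains GGAAGT and was present in 3.20% of promoters, TTGCGCAA, present in 0.183%, and TATAAA, present in 13.6%. A match describes letters in the window and says nothing of binding.

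The 10 genes varied more between tumours than most genes. Their median SD was 0.65 log2 units, against 0.30 over all genes, and 9 of 10 spanned more than 4-fold between the lowest and the highest tumour, as did 25.3% of all genes. The mean centred level of the 10 genes, the average of each gene's level minus its own mean, ran from -1.29 in P803 to 1.09 in P471, a 5.24-fold range. P803 was among the 3 lowest tumours for 9 of the 10 genes. P471 was among the 3 highest for 8 genes, P235 for 6 and P966 for 5. Of the 4 tumours with low neuroendocrine scores, P471 and P966 lay near the top of this order, and P1276 and P425 in its upper part.

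**Figure D1:**
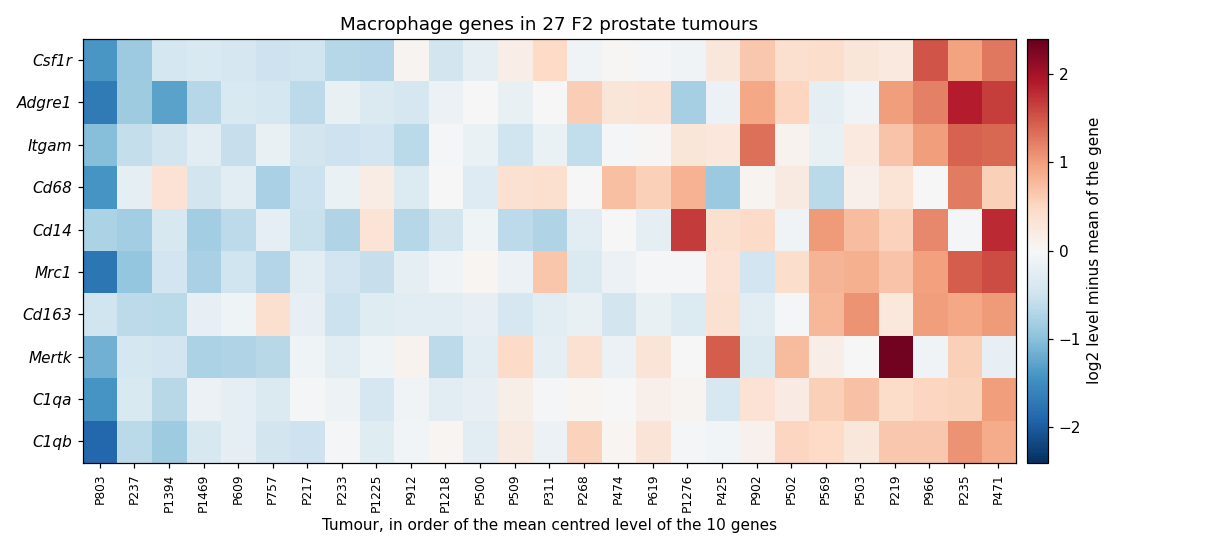
Each row is a macrophage gene and each column a tumour, ordered by the mean centred level of the 10 genes. Colour gives the log2 level minus the gene's mean over 27 tumours: P803 is low for nearly all genes, P471, P235 and P966 are high for most, and Mertk is highest in P219 and P425.

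Csf1r, the receptor for CSF1 and IL34, had log2 levels of 6.20 at the lowest in P803, 7.54 at the median and 9.10 at the highest in P966, with a mean of 7.60 ± 0.65 (SD, n = 27). P471 followed at 8.86 and P235 at 8.56. Adgre1, which encodes an adhesion receptor of mature mouse macrophages, spanned 5.16 in P803 to 8.75 in P235 with a median of 6.72, a range of 3.58 log2 units that was the widest of the 10. P471 (8.52) and P966 (8.07) were again among the highest for Adgre1.

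Itgam encodes CD11b, the alpha chain of a beta-2 integrin that binds complement fragments. Its lowest, median and highest levels were 4.86 in P803, 5.72 and 7.29 in P235, and 15 tumours were below the median of all values. P471 (7.26) and P902 (7.20) were close behind P235. Cd68, a lysosomal membrane protein of phagocytes, had 7.18 in P803, 8.61 at the median and 9.86 in P235. Its next highest tumours were P1276 (9.43) and P474 (9.33), and its second lowest was P425 (7.71).

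Cd14, the co-receptor that passes lipopolysaccharide to TLR4, had levels of 4.78 in both P237 and P1469, 5.41 at the median and 7.40 in P471. Most tumours were low: 18 of 27 were below the median of all values, while P1276 (7.29) and P966 (6.77) stood with P471 at the high end.

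Mrc1 encodes the mannose receptor CD206, which takes up glycoproteins, and Cd163 a receptor for haptoglobin bound to haemoglobin. Mrc1 had 5.58 in P803, 7.17 at the median and 8.88 in P471, with P235 at 8.76. Cd163 had 4.43 in P1394, 4.88 at the median and 6.15 in P503, and 22 tumours were below the median of all values. Its tumours were called as separate clusters, with 20 low tumours and 7 higher ones (P966, P471, P425, P235, P757, P569 and P503). No wide gap marked the boundary: P219, at 5.33, was called low and P425, at 5.45, higher. P425 and P757 (5.46) were also below the median of all values. The higher cluster held P757, which was low for most of the other genes.

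Mertk, a receptor tyrosine kinase with which phagocytes engulf apoptotic cells, ranked the tumours in another order. Its levels were 6.14 in P803, 7.19 at the median and 9.60 in P219, a range of 3.46 log2 units. P425 (8.74) and P502 (8.06) came next, and P471, the highest tumour on the mean of the 10 genes, had only 7.10. C1qa and C1qb encode chains of C1q, which starts the classical complement pathway and is made by macrophages. C1qa had 6.00 in P803, 7.39 at the median and 8.42 in P471. C1qb had 6.94 in P803, 8.80 at the median and 9.90 in P235. For both, P803 stood below the other tumours.

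**Figure D2:**
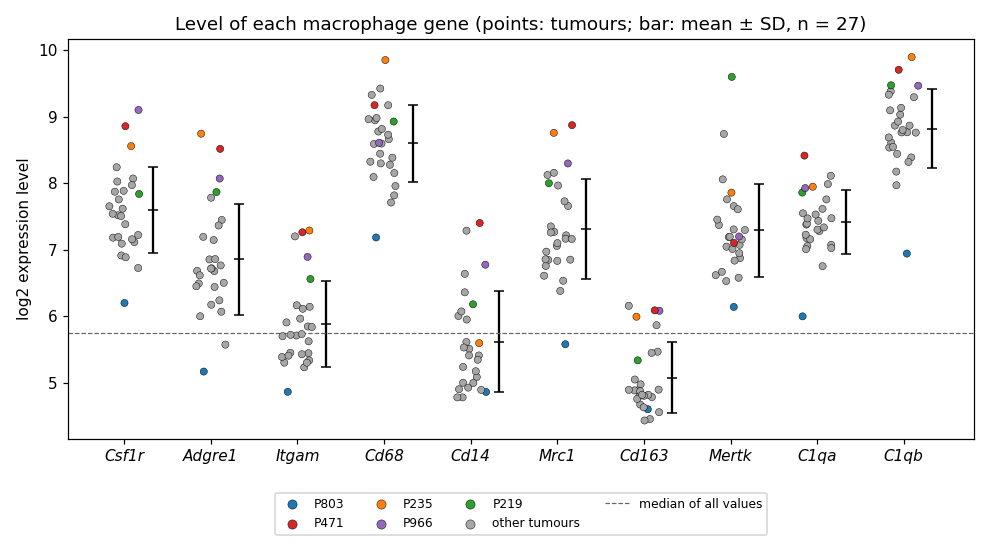
Points are the log2 levels of 27 tumours for each macrophage gene, bars the mean and SD, and the dashed line the median of all values (5.75). P803 is lowest for 8 genes, and Cd14, Cd163 and Itgam have most of their tumours below the line.

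Within the set, departures of more than 1 log2 unit from the mean centred level of the other 9 genes occurred for 5 genes. Mertk departed 3 times: it differed by 1.77 in P219, by 1.43 in P425 and by -1.43 in P471. Cd14 differed by 1.68 in P1276 and by -1.14 in P235. Cd68 differed by -1.17 in P425 and -1.07 in P569, Adgre1 by -1.05 in P1276, and Itgam by 1.16 in P902. Csf1r, Mrc1, Cd163, C1qa and C1qb stayed within that limit in all tumours.

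Most pairs of macrophage genes rose and fell together over the tumours. Among the 36 pairs without Cd163, Pearson's r over 27 tumours had a median of 0.621 and ranged from 0.289 to 0.899, against a median of 0.013 over all pairs of genes. By r, 30 pairs passed at an adjusted p under 0.05 over the 105 relations computed (two-sided permutation tests, 100000 permutations), and by Spearman's rho 32 did. 20 of the 36 pairs, or 55.6%, had r of at least 0.6, as did 1.85% of all pairs of genes. Within the 23 tumours with higher neuroendocrine scores, the median r of these pairs was 0.639 and 34 passed.

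The closest pair was C1qa and C1qb, both on chromosome 4, with r = 0.899, rho = 0.871 and adjusted permutation p = 9.55e-05, and r = 0.819 without P803 and P471. Adgre1 and C1qb had r = 0.880, rho = 0.856 and adjusted permutation p = 9.55e-05. Csf1r and Mrc1 had r = 0.875, rho = 0.835 and adjusted permutation p = 9.55e-05. The raw p of these 3 pairs by r was 1e-05, the smallest that 100000 permutations can give.

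By Pearson's r, Cd68 and Mertk followed the set least, at 0.539 and 0.482 against the mean of the other 9 genes, whereas Mrc1 and C1qb each had 0.900 and Csf1r 0.892. Between them Cd68 and Mertk had r = 0.289, rho = 0.357 and adjusted permutation p = 0.195, and r = 0.094 without P803 and P235. By r, Cd68 passed with 6 of the other 8 genes and Mertk with 3, and by rho Cd68 passed with 5 and Mertk with 6. For Cd68 the relations leaned on the extreme tumours: with C1qb r was 0.622, and 0.325 without P803 and P235. For Mertk with C1qb, r was 0.581, rho 0.678, and r 0.738 without P219 and P425. The r of other Mertk pairs moved in both directions when tumours were left out.

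Cd163 was compared within its 20 low tumours, where its 9 pairs had r between 0.096 and 0.639 with a median of 0.563. By r, 5 of the 9 passed, and by rho 2 did. Its largest r was with Mertk (0.639, rho 0.344, adjusted permutation p = 0.012), and r was 0.301 without P219 and P1394, so that relation rested on those tumours.

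**Figure D3:**
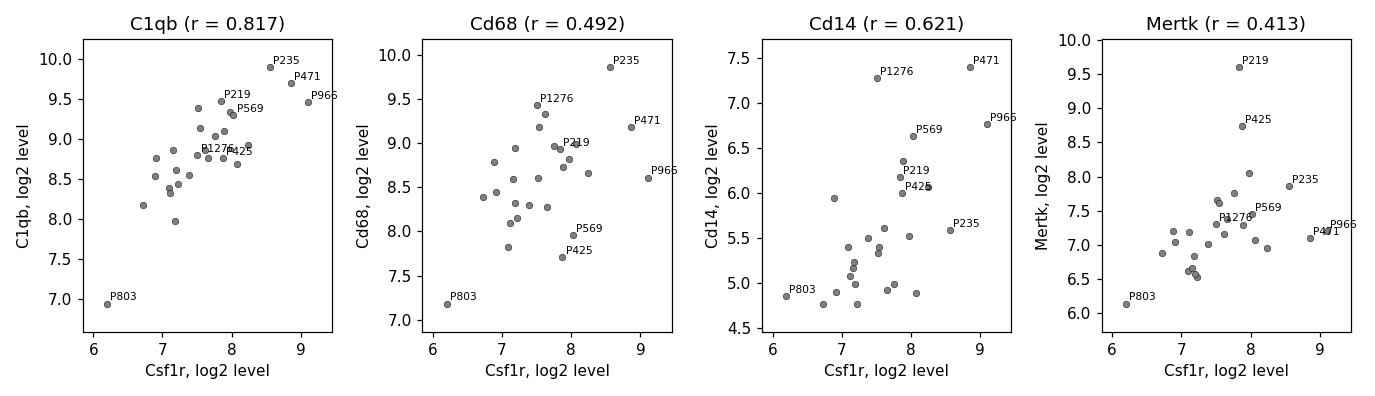
Points are 27 tumours, with the log2 level of Csf1r on the horizontal axis and that of C1qb, Cd68, Cd14 or Mertk on the vertical axis. C1qb follows Csf1r (r = 0.817), P1276 stands above the trend for Cd14, and P219 and P425 stand above it for Mertk (r = 0.413).

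A principal component analysis of the 10 standardised genes put 67.1% of the variance on the first component, on which all 10 had loadings of the same sign. The second, with 10.4%, had its largest loadings for Cd68 (0.61), Cd163 (-0.54) and Cd14 (-0.38). The third, with 7.75%, was mainly Mertk, with a loading of 0.84.

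To see which genes follow the macrophage receptor, each of 22179 genes was fitted on the Csf1r level with limma, and a slope is the change in log2 level per SD of Csf1r. At an adjusted p under 0.05, 850 genes passed, 3.83% of those tested, 707 of them rising (3.19%) and the rest falling. Of the other 9 macrophage genes, 7 rose, with a median slope of 0.47 over the 9 against -0.0052 over all genes. Adgre1 had a slope of 0.69 ± 0.09 (SE, n = 27; limma adjusted p = 4.21e-05), Mrc1 0.65 ± 0.07 (limma adjusted p = 8.31e-06) and Itgam 0.53 ± 0.07 (limma adjusted p = 5.54e-05). C1qb, Cd14, C1qa and Cd163 rose with slopes of 0.49, 0.47, 0.40 and 0.38. Cd68 (0.28 ± 0.10, limma adjusted p = 0.102) and Mertk (0.29 ± 0.12, limma adjusted p = 0.209) did not pass. With the fibroblast and matrix score as a covariate, 21 genes passed along Csf1r, and the macrophage genes among them were Mrc1, Adgre1 and C1qa. The fit of Cd163 took in both of its clusters. Within its 20 low tumours, Cd163 and Csf1r had r = 0.477, rho = 0.421 and adjusted permutation p = 0.0572.

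Single tumours moved the number of genes: 307 passed without P966, 271 without P471 and 1330 without P1276, with 6, 6 and 7 macrophage genes. Restricted to the 23 tumours with higher neuroendocrine scores, the fit called 107 genes, 0.482% of those tested, and 0.478% as rising. Adgre1, Mrc1, Itgam, C1qa and C1qb were among them. Cd14 (slope 0.27, limma adjusted p = 0.428) and Cd163 (slope 0.26, limma adjusted p = 0.290) did not pass there. Nor did Cd68 (slope 0.36, limma adjusted p = 0.091) and Mertk (slope 0.39, limma adjusted p = 0.264). Their slopes were larger there than over 27 tumours (0.28 and 0.29), and larger than those of Cd14 and Cd163.

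Most of the wider macrophage programme rose with Csf1r. Of 18 further pan-macrophage genes, 16 rose, with a median slope of 0.46, and 12 rose within the 23 tumours. They were led by Ptprc, the leukocyte phosphatase CD45 (0.81), Cybb, the catalytic chain of the phagocyte NADPH oxidase (0.74), Lilrb4a, an inhibitory receptor (0.73), and the lysosomal protease Ctss (0.62). Cx3cr1 and Sirpa did not pass. Of 12 resident and scavenger macrophage genes, 7 rose with a median slope of 0.38, among them Cbr2 (0.88), F13a1 (0.67), Folr2 (0.50) and Msr1 (0.46), and 2 rose within the 23 tumours.

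Of 11 lipid-associated macrophage genes, only Ctsb, a lysosomal protease, rose (0.21 ± 0.05, limma adjusted p = 0.018), with a median slope of 0.16, and none rose within the 23 tumours. Cd36 had a slope of 0.52 and Lpl of 0.40, neither past the threshold, and Fabp5 had -0.37, which did not pass either. Cells other than macrophages also express these 4 genes.

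Among 13 ligands, chemoattractants and their receptors, 7 rose, with a median slope of 0.21. Ccr2, the monocyte receptor for CCL2, had a slope of 0.57, Ccl2 itself 0.49, and the chemokines Ccl8 and Ccl7 0.48 and 0.42. Csf1, a ligand of the Csf1r product, rose with a slope of 0.38 ± 0.09 (SE, n = 27; limma adjusted p = 0.019). Il34, the other ligand, had 0.05 ± 0.06 (limma adjusted p = 0.774). None of the 13 passed within the 23 tumours.

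Partners of single macrophage genes were examined in lists of their own. Of 12 complement genes, 6 rose, with a median slope of 0.31, led by C4b (0.61), Cfb (0.56) and the receptor C3ar1 (0.41), and 4 rose within the 23 tumours. Of 8 beta-2 integrin genes, 5 rose, including Itgb2, the beta chain that pairs with the Itgam product (0.47), Fermt3, which activates integrins (0.34), the ligand Icam1 (0.27) and Itgax (0.27). The median slope of that list was 0.27, and 3 rose within the 23 tumours. Of 14 genes of apoptotic cell uptake, 5 rose, with a median slope of 0.24. These were the engulfment factor Dock1 (0.74), Itgav (0.50), Axl, a kinase related to the Mertk product (0.38), and the receptors Stab1 (0.37) and Timd4 (0.22), and 2 of the 14 rose within the 23 tumours. Of 12 genes of the lipopolysaccharide pathway, 4 rose, with a median slope of 0.23. Tlr1 (0.50), Lbp, the serum protein that loads CD14 (0.47), and Tlr6 (0.32) were among them, Tlr4 was not (0.14 ± 0.10, limma adjusted p = 0.563), and 1 of the 12 rose within the 23 tumours. Of 6 MHC class II genes, 4 rose, with a median slope of 0.39, H2-Ab1 having a slope of 1.01 and H2-Aa of 0.81, and 3 rose within the 23 tumours.

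Markers of other cells moved along Csf1r too. Apart from the fit with the fibroblast and matrix score as a covariate, in which 3 macrophage genes passed, their part in these slopes was not tested. Rising genes were 4 of 9 for monocytes, 1 of 12 for neutrophils, 2 of 9 for dendritic cells, 3 of 11 for T and NK cells, 4 of 7 for B and plasma cells and 5 of 7 for mast cells. For fibroblasts and matrix 5 of 11 rose, for endothelium 1 of 10, for interferon response 5 of 9, and for smooth muscle, adipose tissue, luminal epithelium, hypoxia and mitosis none of 9, 6, 13, 10 and 13. The B and plasma cell gene Jchain had a slope of 1.21, the mast cell gene Mcpt4 0.89, and the interferon gene Usp18 1.10. Of 15 neuroendocrine genes 3 fell, namely Chgb (-0.88), Chga (-0.76) and Scg5 (-0.70). Within the 23 tumours none of these lists had a gene that passed.

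**Figure D4:**
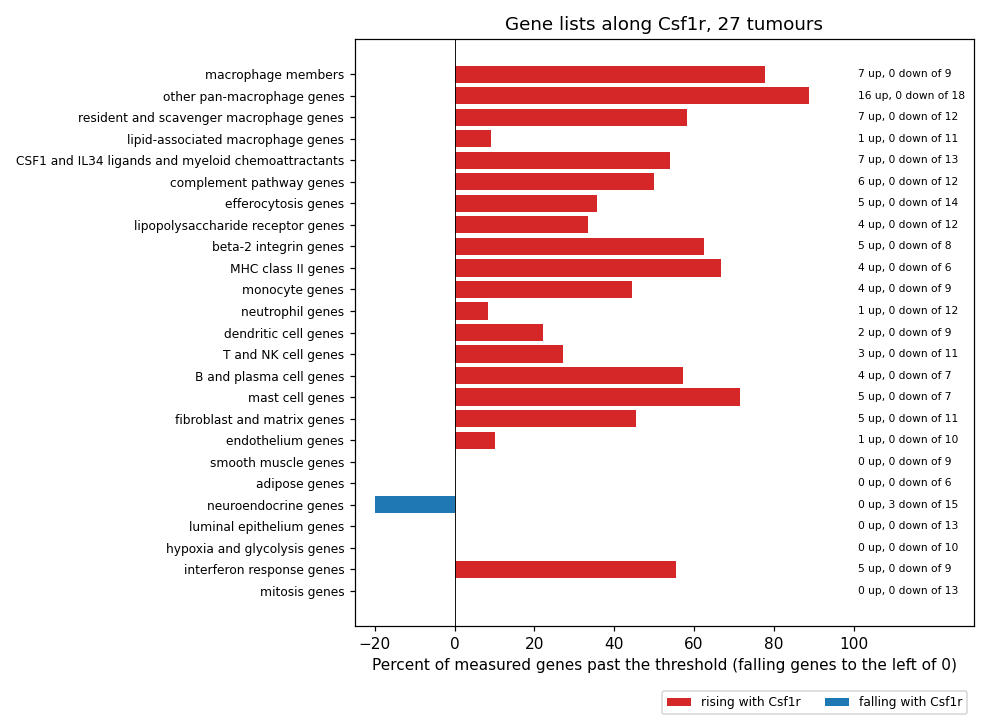
Bars give the percent of each list's measured genes that rose (right) or fell (left) along Csf1r in 27 tumours at a limma adjusted p under 0.05. The macrophage genes reach 7 of 9 and the further pan-macrophage genes 16 of 18, the lipid-associated genes 1 of 11, and neuroendocrine genes are the only falling list.

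Of all named genes, those most like the mean of the 10 by Pearson's r over 27 tumours were Tyrobp (0.918), Nckap1l (0.915), Fcer1g (0.904) and Cybb (0.903). Tyrobp and Fcer1g encode signalling adaptors of myeloid receptors, and Nckap1l a haematopoietic actin regulator. The next 16, down to 0.863, were Sla, Milr1, Adap2, Inpp5d, Ctss, P2ry6, Ccl9, Pld4, Vsir, Itgb2, Unc93b1, Csf2rb2, Dock2, Stab1, Alox5ap and Pirb. The lowest r belonged to Vps26b (-0.763), Pnmal2 (-0.744) and Cbarp (-0.717), followed by Spag4, Ppm1l, Cldn11, Tppp, Trmu, Pcsk1n and Adprm.

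Gene by gene, the 3 most similar genes to Csf1r were Nckap1l (0.888), Tnfaip8l2 and Vsir, and to Adgre1 Cybb (0.930), Nckap1l and Fcer1g. Itgam was most like Alox5ap (0.897), Bst1 and Lyz1, and Cd68 most like Mpeg1 (0.830), Igsf6 and Lilrb4a. Mrc1 was most like Ccl9 (0.898), Csf2rb2 and Pirb, C1qa like Tyrobp (0.844), Lyz2 and C1qc, and C1qb like Cybb (0.900), Ctss and Tyrobp. Cd14 was most like Rinl (0.835), Itga5, an integrin chain that binds fibronectin, and Nfatc4. Mertk was most like Abcc3, a membrane transporter (0.897), Ncoa4, the receptor for ferritin turnover (0.848), and Slc26a3, an anion exchanger (0.844). All 3 were highest in P219 and second highest in P425, as Mertk was: Abcc3 had 9.18 in P219 and 8.72 in P425, against a median of 6.22. P219 and P425 also had the highest smooth muscle scores (2.09 and 1.88), with P235 next at 0.65. Their adipose scores (1.31 and 2.79) were the highest too. The part of other tissue in these Mertk levels was not tested. No pooled r is given for Cd163, whose tumours fell into separate clusters.

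The macrophage genes were next set against scores of other cells and programmes, each the mean of a list's centred levels, with slopes per SD of the score. Along the T and NK cell score, 3017 genes passed, 13.6% of those tested (8.07% rising), and 8 of the 10 macrophage genes rose, with a median slope of 0.36 against -0.013 over all genes. Of the 11 genes in this score, 0 had a mean above the median of all values, so the score rests on levels near background. P471 had the highest score, 1.26, followed by P219 at 0.51. Adgre1 had the largest slope (0.53 ± 0.12, limma adjusted p = 0.0047), while Cd68 (0.12 ± 0.11, limma adjusted p = 0.526) and Mertk (0.33 ± 0.12, limma adjusted p = 0.066) did not pass. Without P471, 2873 genes passed, with 5 of the 10 macrophage genes. With the fibroblast and matrix score as a covariate, 0.979% of genes passed and 0 of the 10. Within its 20 low tumours, Cd163 had r = 0.685 with this score (adjusted permutation p = 0.0041) and rho = 0.430 (adjusted permutation p = 0.098). Within the 23 tumours 1403 genes passed, 6.33% of those tested (5.14% rising), and the macrophage genes among them were Mertk (0.54 ± 0.09, limma adjusted p = 0.00039) and Adgre1 (0.47 ± 0.13, limma adjusted p = 0.025).

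Along the fibroblast and matrix score 2869 genes passed, 12.9% (7.56% rising), and 8 of 10 macrophage genes rose, with a median slope of 0.40 against -0.0086 over all genes. Adgre1 and Cd14 had slopes of 0.54 each (limma adjusted p = 0.0040 and 0.0013), and Cd68 (0.21 ± 0.10) and Mertk (0.19 ± 0.13) did not pass. The number of genes was 871 without P471 and 1488 without P966. Within its 20 low tumours, Cd163 had r = 0.550 with this score (adjusted permutation p = 0.0218) and rho = 0.435 (adjusted permutation p = 0.0939). Without P471 and P966 together, 153 genes passed and no macrophage gene did. Within the 23 tumours 89 genes passed, 0.401% (0.397% rising), and again no macrophage gene.

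Along the hypoxia and glycolysis score 1023 genes passed, 4.61%, and none of the 10 macrophage genes, whose median slope was -0.0066 against 0.015 over all genes. At an unadjusted p under 0.05, 4660 genes passed. Mertk had a slope of -0.35 ± 0.12 (limma adjusted p = 0.084) and Cd14 of 0.25 ± 0.14 (limma adjusted p = 0.293). As a correlation over 27 tumours, Mertk and the hypoxia score had r = -0.493, rho = -0.552 and adjusted permutation p = 0.0187, and r = -0.449 without P219 and P425. Cd163 also passed within its 20 low tumours, with r = -0.505, rho = -0.526 and adjusted permutation p = 0.0405, and r = -0.458 without P219 and P1394. The number of genes along this score was 100 without P1276, 157 without P966, 504 without P471, 584 without P268 and 2191 without P425, and none of the 10 macrophage genes passed in any of these limma fits. Along the mitosis score 5546 genes passed, 25%, and again none of the 10 in the limma fit, with 8171 genes at an unadjusted p under 0.05. Without P425, whose mitosis score of -1.89 was the lowest, 3191 genes passed. The macrophage genes had slopes between -0.24 for Mertk and 0.21 for Cd68, and a median slope of -0.055 against -0.024 over all genes. The direction for Mertk rested on P219 and P425: r was -0.338, rho -0.029 (adjusted permutation p = 0.117 by r), and r 0.374 without those tumours.

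Interferon and neuroendocrine scores fell into separate clusters and were fitted within the larger one. The 8 tumours with higher interferon scores, left out of the interferon fit, were P966, P471, P425, P1276, P235, P219, P502 and P268. They included P471, P235, P966 and P219, the 4 tumours with the highest mean centred level of the 10 macrophage genes. The interferon fit therefore does not describe all 27 tumours, over which 5 of 9 interferon genes rose along Csf1r. Within 19 tumours no gene passed along the interferon score in the limma fit (0%), while 2402 did at an unadjusted p under 0.05, and the macrophage genes had a median slope of -0.061 against 0.015 over all genes. Within 23 tumours 1 gene passed along the neuroendocrine score, 0.00451%, and none of the 10 macrophage genes, with 2858 genes at an unadjusted p under 0.05. All 10 slopes were below 0 there, with a median of -0.29 against 0.016 over all genes. Mertk had -0.52 ± 0.10 (SE, n = 23; limma adjusted p = 0.067), Mrc1 -0.44 ± 0.11 (limma adjusted p = 0.160), and Cd163 the smallest slope, -0.18 ± 0.09 (limma adjusted p = 0.421). Mertk passed after quantile normalization or centring of each array on its median. As a correlation, Mertk and the neuroendocrine score had r = -0.744, rho = -0.661 and adjusted permutation p = 0.00028 over the 23 tumours, and r = -0.531 without P219 and P803. By r, 8 of the 10 genes passed with this score over the 105 relations, all but Cd14 and Cd163, and their r without the 2 farthest tumours lay between -0.537 and -0.277. By rho, 5 passed, namely Adgre1, Mrc1, Mertk, C1qa and C1qb. The permutation tests were not run over all genes, so these counts have no share of all genes beside them. The 105 relations they were adjusted over include 45 pairs of macrophage genes.

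**Figure D5:**
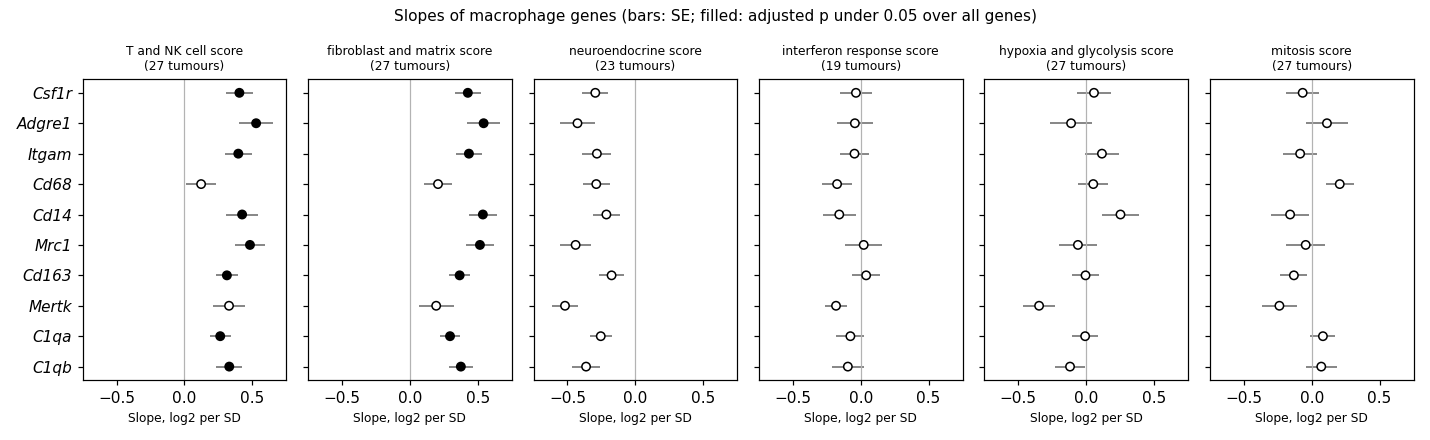
Each panel gives the slope of the 10 macrophage genes, in log2 level per SD of a score, with its SE, and filled points passed at a limma adjusted p under 0.05. 8 genes pass for the T and NK cell and fibroblast scores over 27 tumours, none for the other 4 scores, and all 10 slopes are below 0 for the neuroendocrine score. The interferon panel holds 19 tumours and the neuroendocrine panel 23.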

How the data were processed

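Total RNA of 27 snap-frozen tumours was labelled with biotin, 1 array per tumour, per the labels' protocols; with a single label the arrays were taken as 1-colour. The deposited table holds log2 levels made by the authors with Partek, per the submitters' processing notes. The sources used here do not give the Partek version or the background correction, summarisation and normalization, so differences that normalization removed or added cannot be seen. The labels number the tumours and do not say that each came from a separate animal, so p-values measure the spread between these samples. Arrays hold no read depth, so their number limits precision.

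Rows were named through the platform's probe table: of 41345 rows, 23521 carried a single symbol and were used, and 1814 with several symbols and 16010 with none there were left out. For 1082 genes measured by several rows, that with the highest mean stands for the gene. RefSeq tables of GRCm38.p6 held 22139 of the symbols and supplied the promoters; no protein table was used here.

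A score is the mean over a list of log2 level minus the gene's mean. Genes were fitted on the Csf1r level or a score, scaled to SD 1, with limma 3.58.1 (R 4.3.3, eBayes with a trend, Benjamini-Hochberg over all genes), list genes left out of their own score's fit. Separate clusters were called with mclust 6.1.1, and fits along a clustered score, and correlations with a clustered measure, were run within the larger cluster. Limma fits kept all tumours of the score for Cd163, whose own levels were clustered. Correlations and permutations used numpy 2.4.6, with ranks from scipy 1.17.1. The fit was tested on simulated data with independent noise per gene. It recovered 61% of slopes of 0.25 and 88% of slopes of 0.5 over 27 tumours. Over 23 tumours, with random values in place of a score, it recovered 50% and 89%. Of the genes with no slope added, 14 were called over 27 tumours and 9 over 23. Named genes are the macrophage genes, the genes ranked by r, and of each list up to 4 with the largest absolute slope; those named beyond this, and the values of single tumours outside the 3 highest or lowest, were picked once their values were known. The macrophage genes and the lists were chosen with earlier results of these data known.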

Additional observations from a re-analysis of the deposited data

How the results depend on the processing

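No paired analysis was possible because the tumours form 1 group with no shared replicate numbers. Under settings other than leaving out 1 tumour, 106 counts and medians were called unchanged and 31 were not. A count was called unchanged if it stayed within 1.5 times of the reported value, or if both were 0. The median r was called unchanged if it moved by less than the SD of r over the pairs without Cd163. Along Csf1r, 99 genes and 0 macrophage genes passed with Cd68 as the index gene, 228 genes with C1qa, 21 genes and 3 macrophage genes with the fibroblast score as a covariate, 349 genes without P966 and P803, 86 without P471 and P966, and 107 within the 23 tumours with higher neuroendocrine scores. Along the T and NK cell score, 1734 genes and 2 macrophage genes passed without P471 and P219, 0.979% of genes and 0 with the fibroblast covariate, where the slope of Cd68 turned to -0.011, and 1403 and 2 within the 23 tumours. Along the fibroblast score, 153 and 0 passed without P471 and P966, and 89 and 0 within the 23 tumours. Along hypoxia, 437 genes passed with the number in each tumour's label as a covariate, 23 without P1276 and P966, and 1 macrophage gene with the fibroblast covariate. Along the neuroendocrine score, 16 genes and 1 macrophage gene passed after quantile normalization, 14 and 1 after median centring, 2 with genes above the median level only, 2 with the label number, 0 without P219 and P803, and 0 with the fibroblast covariate. Along mitosis, 2789 passed without P425 and P500. By rho, 2 pairs with Cd163 passed.

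Leaving out each tumour in turn gave 271 to 1330 genes along Csf1r with 6 to 7 macrophage genes, 2450 to 3356 with 5 to 8 along T and NK cells, and 871 to 3421 with 7 to 8 along fibroblasts. It gave 100 to 2191 with 0 to 0 along hypoxia, 0 to 5 with 0 to 0 along interferon (5 without P912, 1 without P503) and 3191 to 6132 with 0 to 0 along mitosis. Along the neuroendocrine score it gave 0 to 34 genes with 0 to 1 macrophage genes: 34 without P217, 14 without P233, 13 without P569, 5 without P619, 3 without P803, 2 without P1225, P1218, P502 or P268, and 0 without P219 or P609, with 1 macrophage gene, Mertk, without P619, P233, P1218, P217 or P569. The median r of 36 pairs was 0.595 to 0.686, with 23 to 33 passing, and 2 to 7 pairs with Cd163 passed, 2 without P219. The causes were not tested. The fits without a pair of tumours were chosen after seeing the data, except the fit along Csf1r without P966 and P803. The settings within the 23 tumours, and with the fibroblast covariate on scores, were also chosen after seeing the data. Low levels, such as those of Cd14 and Cd163, are near background, which limits what their slopes show.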
